A study of Mus musculus with 20 samples.

Results

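Bulk RNA sequencing of whole mouse kidney was used to compare 2 sets of animals that all received the same dietary supplement. The supplement, Choleste-Help, is a red yeast rice product taken for cholesterol control, and the labels describe a normal and a toxic lot of it. The deposited count table has 20 sample columns, and 10 of them carry neither the control prefix nor the puberulic acid prefix. These 10 columns fall by name into 2 sets of 5, chm_o1000 and chm_x1000, which were compared directly, so that effects shared by both sets cancel. Neither the labels nor the column names say which set received which lot, so each set is called by its prefix.

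All animals were male C57BL/6J mice, bought at 7 weeks of age and used at 8 weeks. Each supplement group was given 1000 mg per day, in 6 daily doses from day 0 to day 5, and kidneys were taken on day 7 after a day without dosing. The other 10 columns, used here only for reference, are 5 controls given PBS and 5 mice given puberulic acid, a tropolone compound of mould origin, at 1 mg per day on the same schedule. The route is given as oral in one label and as gavage or intraperitoneal injection in another. The labels count 6 to 10 mice per group and do not state that each sequenced sample is a different mouse, so p-values measure the spread between these samples.

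The kidney filters blood at the glomerulus and recovers most of the filtrate in the proximal tubule, whose cells carry dense sets of transporters and burn fatty acids in abundant mitochondria. When proximal tubule cells are injured they lose these transport and metabolic transcripts and switch on a repair programme that includes Havcr1 (KIM-1), Lcn2 (NGAL), Sox9 and cell cycle genes. Such changes are followed by chemokine release, macrophage entry and matrix production in many forms of acute kidney injury.

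Total counts ran from 18865725 to 21395776 in the chm_o1000 columns and from 19474718 to 24266310 in the chm_x1000 columns. The composition of the libraries differed between the sets. At least 1 count was found for 20151 to 20713 genes in chm_o1000 and for 22429 to 23818 genes in chm_x1000 (exact two-sided permutation p = 0.00794, the smallest that 5 against 5 allows), and the sets stayed apart after every library was thinned to 1 common depth. Genes of the mitochondrial genome, taken as all symbols that start with mt-, held 17.6 to 24.4% of counts in chm_o1000. In chm_x1000 they held 10.5 to 14.8% (exact permutation p = 0.00794). Transcripts that mark kidney segments were present in every library, while 5 muscle markers summed to 0.554 to 2.43 CPM in chm_o1000 and 0.366 to 2.33 CPM in chm_x1000. The 5 liver markers, albumin and apolipoprotein genes among them, summed to 212 to 295 and 124 to 213 CPM, with 2 of them lower in chm_x1000 and Cyp2c29 at 0 in all 10 columns. Column 3 of chm_o1000 held more urothelial and fat transcripts than its 4 partners, with Upk1b (a uroplakin of bladder and renal pelvis lining) at 14.4 CPM against 1.09 to 2.67 CPM, and Adipoq (adiponectin) at 22.9 CPM against 0 to 0.983 CPM. Column 3 of the puberulic acid group held the same transcripts (Upk1a 10.1 CPM, Adipoq 19.9 CPM). CPM is the count scaled to a common depth with TMM (trimmed mean) factors of all 20 libraries.

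Most of the measured kidney transcriptome differed between the sets. Of 15995 genes tested, 10969 (68.6%) had an adjusted p under 0.05 (quasi-likelihood F-test of edgeR, Benjamini-Hochberg adjusted over all of them). In chm_x1000, 5686 (35.5%) were higher and 5283 (33.0%) lower. Each log2 fold change is chm_x1000 minus chm_o1000 unless another comparison is named. Large changes were more frequent on the upper side, where 348 called genes passed 16-fold, against 18 on the lower side. For 8711 of the tested genes (54.5%) the CPM ranges of the sets did not overlap. The split into higher and lower rests on the scaling: scaling by total counts alone moved the median over all tested genes from 0.04 to 0.57 (log2) and gave 9335 genes higher and 2507 lower, or 78.8% of calls higher in place of 51.8%. Changes are given on the TMM scale unless stated. Each count of list genes is to be read beside the shares of 35.5% higher and 33.0% lower. A list with shares near these does not stand out by its count. Some lists hold members near 0 in several chm_o1000 libraries, such as Krt20, Fosl1, Eda2r and Cyp3a13. Such genes could pass the low-count filter through chm_x1000 alone, and their calls are part of the counts given.

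**Figure D1:**
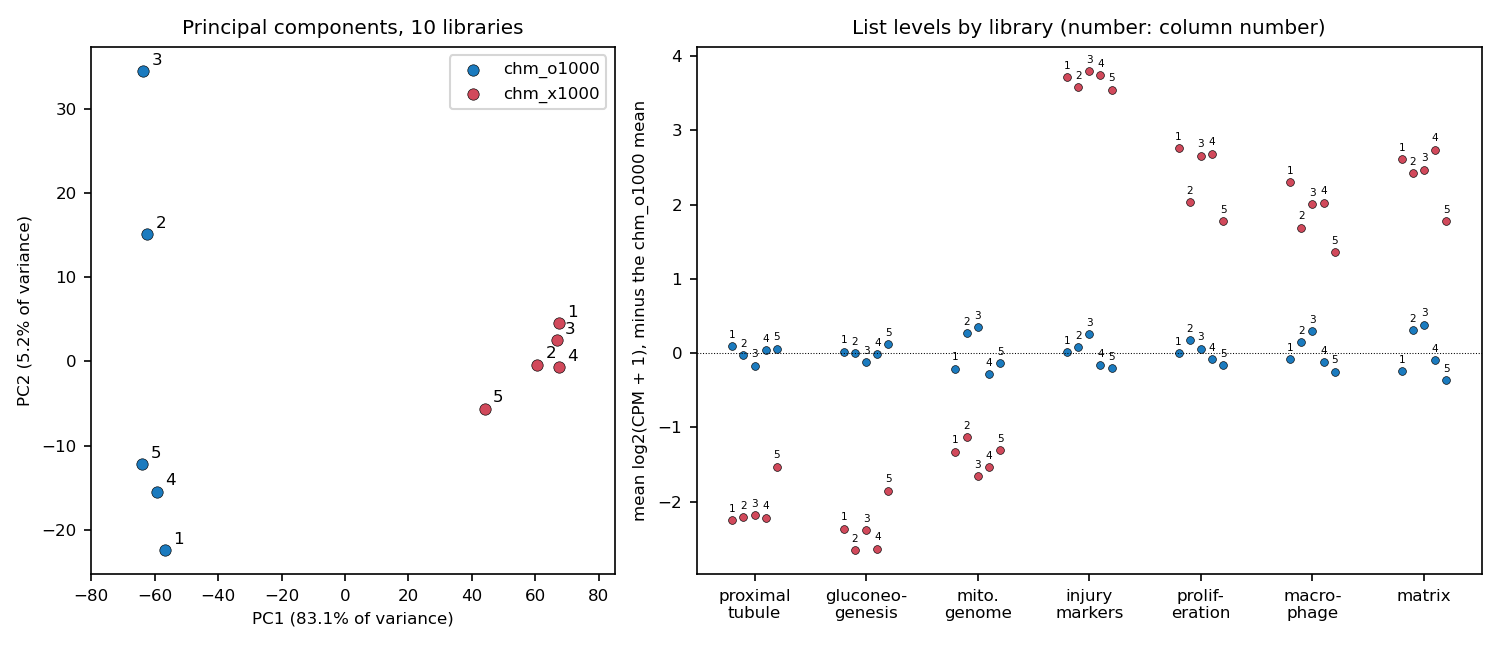
Left, principal components of log2(CPM + 1) over the tested genes for the 10 supplement libraries, with points numbered by column. Right, mean log2(CPM + 1) of 7 gene lists in each library (vertical axis), after subtracting the mean of the chm_o1000 libraries; the sets part along PC1, which holds 83.1% of the variance, and chm_x1000 column 5 sits nearest to chm_o1000 in the proximal tubule list.

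The largest rises were genes with almost no transcript in the chm_o1000 kidneys, and several are best known from other tissues. Fut2, the fucosyltransferase that sets secretor status of mucous epithelia, had 0 counts in all 5 chm_o1000 columns and 9.26, 4.88, 10.2, 12.8 and 6.41 CPM in chm_x1000 columns 1 to 5. Against a floor of 3 counts per library it was at least 46.9-fold higher. The gut cadherin Cdh17 followed the same pattern, with 0 counts in chm_o1000 and 3.61 to 10.4 CPM in chm_x1000, at least 34.4-fold higher. Mmp10, a matrix metalloproteinase, was absent from the counts of chm_o1000 and stood at 3.52 to 7.95 CPM in chm_x1000, at least 29.3-fold higher. Lce3c, a late cornified envelope protein, reached 2.69 to 13.7 CPM, and Casp14, the keratinocyte caspase, reached 2.91 to 5.69 CPM, each from 0 counts in every chm_o1000 column.

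The small proline-rich proteins are cross-linked into the cornified envelope and are also induced in stressed simple epithelia. Sprr2h had 1 count in all of chm_o1000 and 12.7, 11.8, 19.4, 11.1 and 15.7 CPM in chm_x1000, a ratio of 1152 with a 95% counting interval of 207 to 45532. Sprr1b, with 2 counts in chm_o1000, stood at 23.6, 11.8, 40.6, 16.7 and 20.7 CPM in chm_x1000, a ratio of 942 (95% counting interval 261 to 7785). Every chm_x1000 library held these transcripts, and column 3 held the most of both. The remaining large rises were Cnga3 (a cone photoreceptor channel subunit, 11.8 to 26.5 CPM in chm_x1000 against at most 0.123 CPM), Btn1a1 (a milk fat globule protein, 1.97 to 5.99 CPM), Scgn (a calcium sensor of neuroendocrine cells, 1.51 to 7.49 CPM), Wincr1 (a long non-coding RNA, 1.48 to 4.595 CPM) and Tigit. Tigit encodes an inhibitory receptor of T and natural killer cells and went from 0 counts to 2.005 to 8.16 CPM. In all, 4311 genes met the naming rule on the upper side, 57 of them with 0 counts throughout chm_o1000, and 408 were unnamed models or pseudogenes.

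**Figure D2:**
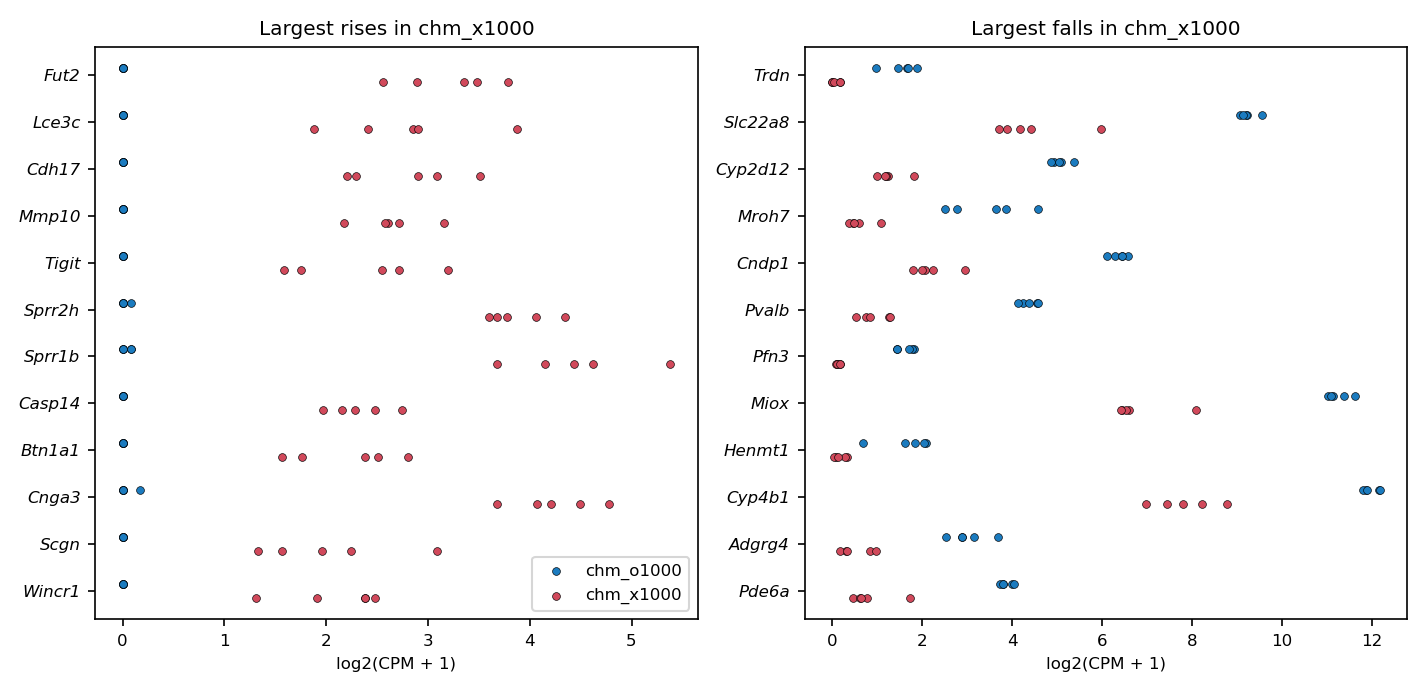
The 12 largest rises (left) and the 12 largest falls (right) among called genes with no overlap between sets. Each point is a library, the horizontal axis is log2(CPM + 1), and rises start from 0 or near 0 in chm_o1000 while most falls leave a residual level in chm_x1000.

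Among the largest falls were abundant transporters and enzymes of the proximal tubule. Slc22a8 (OAT3, which takes organic anions including many drugs from blood into the tubule cell) was 536, 751, 597, 588 and 559 CPM in chm_o1000 columns 1 to 5. The chm_x1000 columns held 12.1, 20.5, 13.9, 17.002 and 62.1 CPM. Its mean was 24.1-fold lower in chm_x1000 (log2 fold change -4.59, SE 0.42, adjusted p = 5.54e-07), the ranges were far apart, and column 5 kept the highest residual. Over the alternative settings, which include leaving out each library, the log2 fold change of Slc22a8 ran from -5.28 to -4.07. Miox, the myo-inositol oxygenase of proximal tubule, was 2095, 3140.2, 2679.7, 2259 and 2164 CPM in chm_o1000 and 86.7, 96.6, 92.1, 85.2 and 271 CPM in chm_x1000. Again column 5 stood above the other 4, and the log2 fold change was -4.28 (SE 0.34). Cyp4b1, a cytochrome P450 abundant in kidney, was 4052 ± 492 CPM (SD, n = 5) against 252 ± 122 CPM (SD, n = 5), a 16.1-fold fall.

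Cndp1, which hydrolyses carnosine, had a mean of 82.4 CPM in chm_o1000 and 3.84 CPM in chm_x1000. Pvalb, the calcium-binding protein parvalbumin of the early distal convoluted tubule, was 16.5 to 22.7 CPM against 0.441 to 1.42 CPM. Cyp2d12 (a P450, 28.02 to 40.7 against 0.991 to 2.54 CPM), Mroh7 (4.72 to 22.7 against 0.2997 to 1.11 CPM), Pde6a (a rod photoreceptor phosphodiesterase subunit, 12.4 to 15.5 against 0.377 to 2.31 CPM) and Adgrg4 (an adhesion receptor, 4.81 to 11.8 against 0.133 to 0.979 CPM) fell without overlap. Trdn (triadin), Henmt1 (a small RNA methyltransferase) and Pfn3 (a profilin) complete the group at levels below 4 CPM in chm_o1000. On the lower side 4165 genes met the naming rule, 498 of them unnamed. Sprr, Cyp2d, Cyp4a and Gsta genes have close paralogs, so the share of reads assigned to each member is uncertain.

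Promoters of the 24 largest changes were searched on both strands for the AP-1 motif TGANTCA and for GTTAAT, a homeodomain factor motif. AP-1 is a dimer of Fos and Jun proteins. The letters were chosen after matches in some of these genes had been seen. TGANTCA was found in 4 of the 9 rises and 3 of the 8 falls that have an entry in the RefSeq promoter table (GRCm38.p6, 250 bases before to 50 after the start), against 8.97% of the 27025 genes of the table and 6.87% of the tested genes with an entry. Among called genes at least 16-fold higher the share was 46 of 234 (19.7%), and among called genes at least 4-fold lower it was 23 of 290 (7.93%). GTTAAT was found in 3 of the 8 falls, 2 of the 9 rises and 6.29% of tested genes. Its share was 43 of 290 (14.8%) at least 4-fold lower and 23 of 234 (9.83%) at least 16-fold higher. These are counts of letters, with no test and no measure of binding. The promoters of a pair of risers and a pair of fallers are shown with the matched motif in capitals (TGANTCA for the first 2, GTTAAT on either strand for the last 2), 5′ to 3′ along the gene.
Sprr2h (chr3:92385435-92385734, plus strand): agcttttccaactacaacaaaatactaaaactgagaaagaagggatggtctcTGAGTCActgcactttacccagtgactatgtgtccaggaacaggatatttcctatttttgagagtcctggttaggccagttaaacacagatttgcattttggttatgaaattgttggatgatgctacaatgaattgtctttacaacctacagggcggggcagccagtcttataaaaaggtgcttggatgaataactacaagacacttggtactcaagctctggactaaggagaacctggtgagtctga
Mmp10 (chr9:7502092-7502391, plus strand): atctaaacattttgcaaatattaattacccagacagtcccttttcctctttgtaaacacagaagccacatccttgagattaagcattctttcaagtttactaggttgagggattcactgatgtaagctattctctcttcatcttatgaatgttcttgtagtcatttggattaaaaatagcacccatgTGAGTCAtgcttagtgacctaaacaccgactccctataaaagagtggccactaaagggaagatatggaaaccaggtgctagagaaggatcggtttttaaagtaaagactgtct
Slc22a8 (chr19:8592932-8593231, plus strand): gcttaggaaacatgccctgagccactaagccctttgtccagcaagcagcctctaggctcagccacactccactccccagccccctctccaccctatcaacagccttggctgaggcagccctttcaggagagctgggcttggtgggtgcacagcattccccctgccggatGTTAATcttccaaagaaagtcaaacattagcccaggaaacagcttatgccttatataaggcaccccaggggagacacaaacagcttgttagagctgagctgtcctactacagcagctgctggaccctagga
Miox (chr15:89334223-89334522, plus strand): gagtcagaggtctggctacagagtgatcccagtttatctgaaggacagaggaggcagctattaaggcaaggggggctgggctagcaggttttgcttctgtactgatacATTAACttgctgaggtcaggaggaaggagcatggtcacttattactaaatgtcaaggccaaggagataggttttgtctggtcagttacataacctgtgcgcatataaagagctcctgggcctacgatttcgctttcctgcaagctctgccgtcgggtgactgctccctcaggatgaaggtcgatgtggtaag

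Markers of tubular injury were higher in chm_x1000 with almost no exception. Of 22 injury genes, 21 rose and none fell, with a median log2 fold change of 3.58 against 0.04 over all tested genes, of which 35.5% were called higher. Havcr1, the KIM-1 phosphatidylserine receptor of injured proximal tubule, was 8.31, 3.68, 1.74, 1.66 and 2.12 CPM in chm_o1000 columns 1 to 5. It stood at 1005, 1138, 1175, 1229 and 1243 CPM in chm_x1000, a 331-fold difference of means (log2 fold change 8.37, SE 0.40, adjusted p = 2.85e-09). The chm_x1000 libraries lay close together, and within chm_o1000 columns 1 and 2 were above the other 3, which were within the control range of 1.601 to 2.58 CPM. Lcn2, the iron-siderophore carrier NGAL, was 3.63, 4.67, 2.98, 2.79 and 1.83 CPM in chm_o1000 and 245, 402, 231, 309 and 152 CPM in chm_x1000 (log2 fold change 6.40, SE 0.30).

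Krt20, an intermediate filament keratin switched on in injured tubules and also a urothelial gene, was 3.45, 0.675, 3.89, 0 and 0.172 CPM in chm_o1000 and 290.5, 266, 342, 231 and 262 CPM in chm_x1000. The 2 higher chm_o1000 values were in columns 1 and 3, and column 3 is the library with the most uroplakin transcript; the part of urothelium in those low values was not tested. The uroplakin genes Upk1a, Upk1b, Upk2 and Upk3a were lower in chm_x1000 (log2 fold changes -1.76, -2.30, -2.13 and -2.66), and without chm_o1000 column 3 the values were -0.66, -1.25, -1.30 and -1.82, with Upk1a no longer called (adjusted p = 0.0609). Krt5, the fifth gene of the urothelial list, was higher (1.85), a call lost without any 1 of 9 libraries, and was at 4.11 without chm_o1000 column 3 (adjusted p = 7.67e-08). Upk2 was not called when chm_o1000 column 3 and chm_x1000 column 5 were both left out (adjusted p = 0.0665). Krt20 rose by 7.47 and by 8.01 without chm_o1000 column 3. Among other injury genes, osteopontin (Spp1) went from 598 ± 58.2 to 15032 ± 3149 CPM (SD, n = 5), clusterin (Clu) from 275 ± 22.5 to 1821 ± 439.9 CPM, and the adhesion molecule Vcam1 from 8.05 ± 1.497 to 99.2 ± 33.7 CPM. Sox9, the transcription factor of tubule repair, was 0.862, 0.553, 0.694, 0.416 and 0.916 CPM in chm_o1000 and 37.6, 34.3, 39.4, 34.7 and 39.7 CPM in chm_x1000, a 53.97-fold rise with no overlap. The fibrinogen chains Fga, Fgb and Fgg rose by 4.37, 5.83 and 5.35 on the log2 scale, and the protease inhibitor Timp1 by 7.85. Krt7, a keratin of collecting duct and urothelium, did not pass the test (118 against 110.4 CPM), and was called higher under total-count scaling (0.45, adjusted p = 0.00232).

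**Figure D3:**
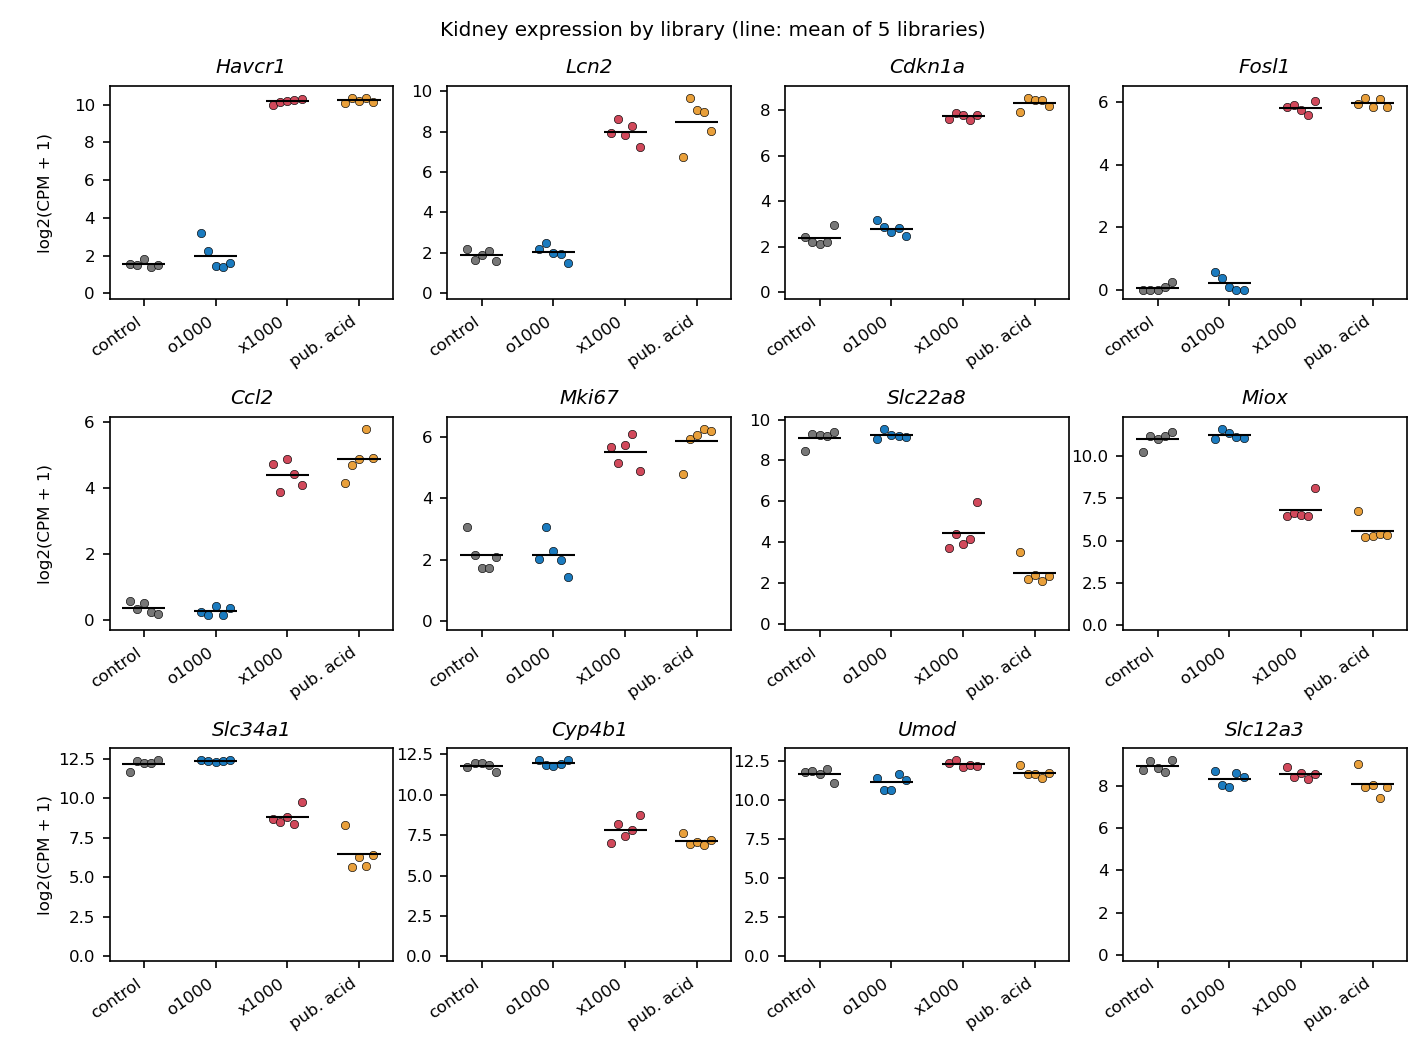
Log2(CPM + 1) of 12 genes in each of the 20 libraries (points), grouped as control, chm_o1000, chm_x1000 and puberulic acid, with the mean of each group of 5 as a line. Havcr1, Lcn2, Cdkn1a, Fosl1, Ccl2 and Mki67 are low in control and chm_o1000 and high in chm_x1000 and puberulic acid, while Slc22a8, Miox, Slc34a1 and Cyp4b1 show the reverse and Slc12a3 overlaps between the supplement sets.

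In the cornified envelope list 8 of 13 genes had enough counts to test. Members near 0 in chm_o1000 could pass the low-count filter through chm_x1000 alone, so the text gives no count of calls or median for this list. Sprr1a was the most abundant, at a mean of 8.65 CPM in chm_o1000 and 534 CPM in chm_x1000. Crct1, a cysteine-rich protein of stratified epithelium, went from 0.0976 to 35.8 CPM, and Ivl (involucrin) from 0.347 to 3.62 CPM, a call that DESeq2 did not make (adjusted p = 0.0704).

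Proximal tubule identity was lower in chm_x1000. Of 34 transporter and identity genes, 33 fell and 1 rose, with a median log2 fold change of -2.01, where 33.0% of all tested genes were called lower. Slc34a1, the sodium-phosphate cotransporter NaPi-IIa, was 5561, 5312, 5039.8, 5182 and 5542 CPM in chm_o1000. Its levels in chm_x1000 were 422, 367, 446, 333 and 866 CPM (log2 fold change -3.44, SE 0.24, adjusted p = 5.28e-08). The sets did not overlap, and column 5 of chm_x1000 stood above its 4 partners, as it did for Miox and Slc22a8. In bulk tissue, fewer proximal tubule cells and less of these transcripts per cell cannot be told apart.

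The falls spanned the length of the proximal tubule. Slc5a2 (SGLT2, the early-segment glucose transporter) was 607 ± 54.4 CPM (SD, n = 5) in chm_o1000 and 140.2 ± 39.1 CPM in chm_x1000. Slc22a6 (OAT1, the partner of Slc22a8 in organic anion uptake) was 1045 to 1377 CPM in chm_o1000 and 42.8 to 199.8 CPM in chm_x1000, a 12.5-fold fall of the mean. Slc7a13, an amino acid transporter of the straight S3 segment, fell 5.202-fold. The endocytic receptors megalin (Lrp2) and cubilin (Cubn), which recover filtered protein, fell 5.84-fold and 5.002-fold. Hnf4a, a transcription factor that maintains proximal tubule identity, fell by less, with a log2 fold change of -1.64. The exception was Slc13a1, the sodium-sulfate cotransporter NaS1, at 309.5, 376, 298, 369 and 306 CPM in chm_o1000 and 344, 476, 507, 632 and 774 CPM in chm_x1000. It rose by 0.73 (SE 0.18, adjusted p = 0.00255), although chm_x1000 column 1 lay within the chm_o1000 range. With puberulic acid the same gene was 564, 173, 158, 155 and 269 CPM, and column 1 of that group alone was above the control median.

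Of 9 thick ascending limb genes, 3 were higher and 3 lower, with a median of 0.04. These shares are near those over all tested genes, 35.5% and 33.0%. Among the rises, the call of Cldn16 was lost without any 1 of 6 libraries and that of Cldn19 without any 1 of 2. Umod, the uromodulin secreted by this segment, was 2706, 1565, 1551, 3193 and 2453 CPM in chm_o1000 and 5148, 5979, 4383, 4824 and 4578 CPM in chm_x1000, higher in every chm_x1000 library (log2 fold change 1.13, SE 0.20). Egf, the growth factor precursor made in the same segment and the distal convoluted tubule, went the other way, from 963, 518, 541, 1275 and 828 CPM to 224, 149, 146, 125 and 235 CPM (log2 fold change -2.22, SE 0.26). The loop cotransporter Slc12a1 was at 484 and 495 CPM and did not pass the test, but was called higher under total-count scaling (0.56, adjusted p = 0.0211).

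In the distal convoluted tubule list 1 of 9 genes rose and 5 fell, beside 35.5% and 33.0% of all tested genes, with a median of -0.40 that turned to 0.12 under total-count scaling. The thiazide-sensitive cotransporter Slc12a3 was 246 to 408 CPM in chm_o1000 and 316 to 465 CPM in chm_x1000 and did not pass the test (adjusted p = 0.264). Under total-count scaling it was called higher (0.72, adjusted p = 0.00208). The calcium-binding proteins Pvalb and Calb1 had log2 fold changes of -4.38 and -1.48. Trpv5, the calcium entry channel, rose, with 16.1 to 21.4 CPM in chm_o1000 and 29.2 to 58.01 CPM in chm_x1000. All 8 principal cell genes of the collecting duct fell, where 33.0% of all tested genes did, with a median of -1.18; the water channels Aqp2 and Aqp3 fell 2.402-fold and 3.97-fold. Of 8 intercalated cell genes, 6 fell and none rose, beside the same 33.0% and 35.5%, led by the anion exchanger Slc4a1 (37.6 to 62.04 against 11.9 to 24.1 CPM).

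In the podocyte list 1 of 9 genes rose and 2 fell, with a median of -0.09, where 35.5% of all tested genes were called higher and 33.0% lower. Nephrin (Nphs1) was 22.3, 48.5, 42.8, 28.9 and 33.3 CPM in chm_o1000 and 22.4, 20.95, 20.05, 21.5 and 18.2 CPM in chm_x1000, with chm_o1000 column 1 inside the chm_x1000 range (log2 fold change -0.76, SE 0.17, adjusted p = 0.00135). Cdkn1c, a cell cycle inhibitor of mature podocytes, had a log2 fold change of -0.80. Under total-count scaling neither was called, with Nphs1 at -0.21 (adjusted p = 0.231) and Cdkn1c at -0.26 (adjusted p = 0.195). Of 10 endothelial genes 2 rose and 2 fell, beside the same 35.5% and 33.0%, none by more than 0.39 on the log2 scale. Kdr, the VEGF receptor, had a log2 fold change of -0.34 that became 0.18 under total-count scaling, where it did not pass the test (adjusted p = 0.146), and Cdh5 was higher by 0.39. The calls of Cdh5 and Kdr were lost when all 20 libraries were fitted together (adjusted p = 0.0861 and 0.11).

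**Figure D4:**
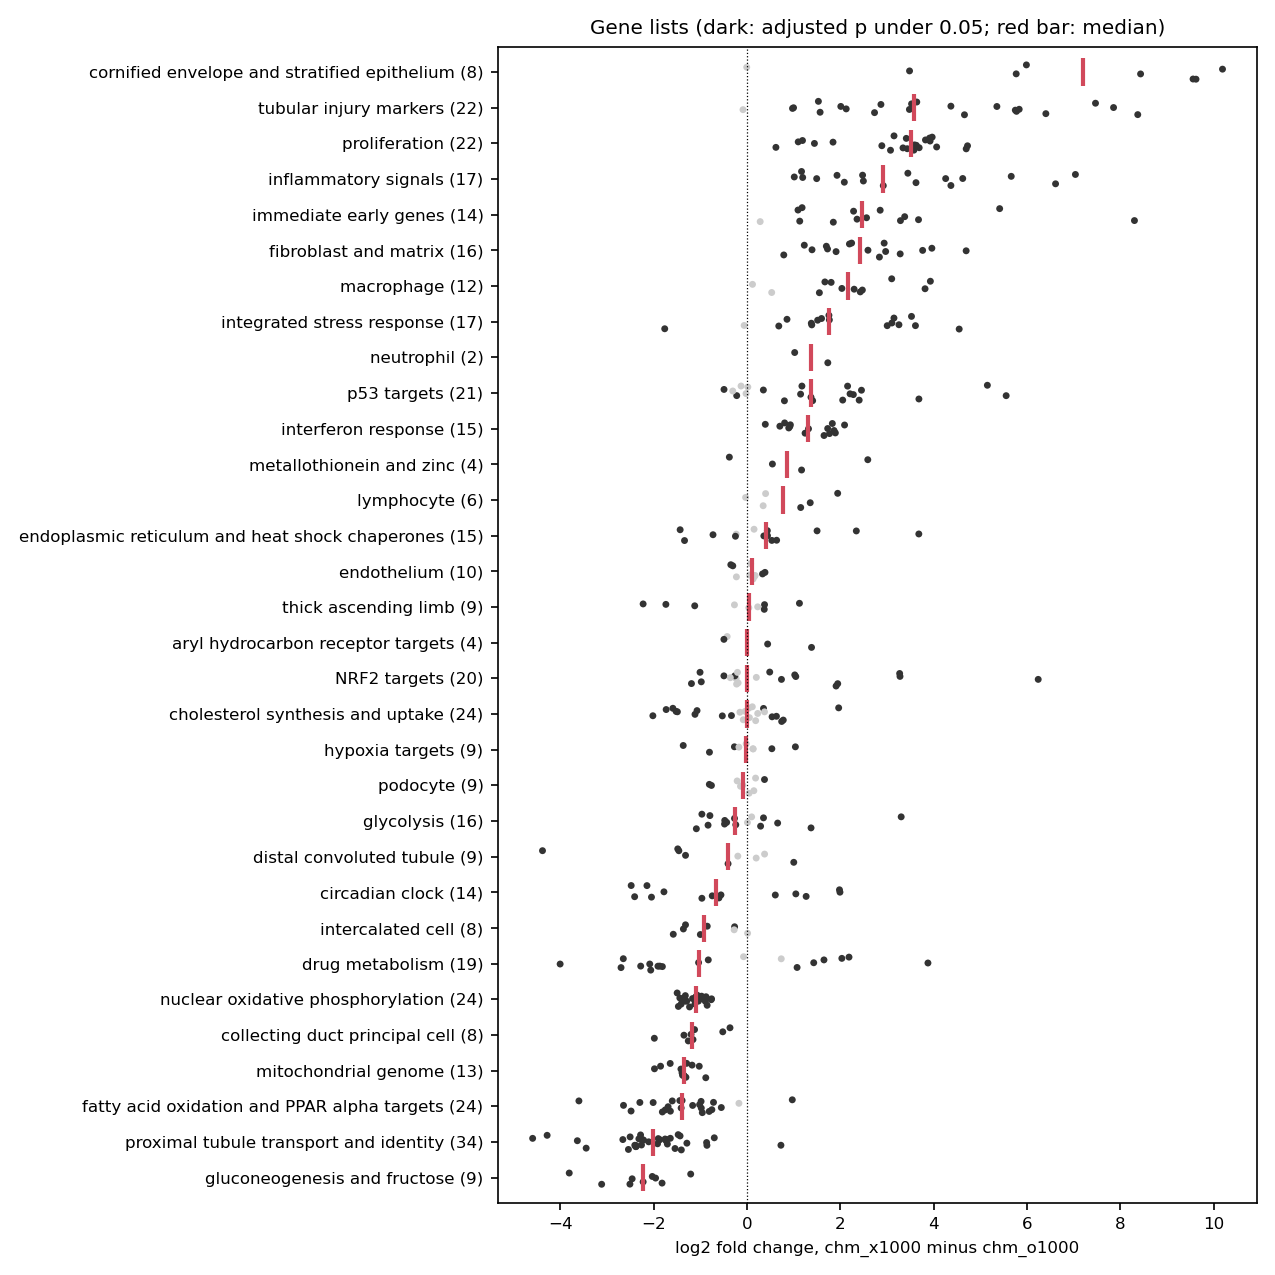
Log2 fold change of chm_x1000 minus chm_o1000 for the tested genes of 32 lists (number tested in brackets), with genes below the low-count filter not drawn, dark points for adjusted p under 0.05, grey points otherwise and a red bar at the list median. Injury, proliferation and matrix lists lie to the right of 0, and proximal tubule, gluconeogenesis, fatty acid oxidation and mitochondrial lists lie to the left. In the cornified envelope and inflammatory lists, members near 0 in chm_o1000 could pass the filter through chm_x1000 alone. Their bars and dark points are not to be read as list results.

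Most genes of gluconeogenesis, fatty acid oxidation and oxidative phosphorylation were lower, while those of glycolysis were mixed. All 9 genes of gluconeogenesis and fructose use fell, where 33.0% of all tested genes did, with a median of -2.22. G6pc, the glucose-6-phosphatase that ends gluconeogenesis, was 596, 521, 301, 460.3 and 594 CPM in chm_o1000 and 25.1, 27.6, 33.2, 30.7 and 59.4 CPM in chm_x1000, a 14.05-fold fall with no overlap. Pck1, the rate-limiting enzyme, had a mean of 2294 against 264 CPM. Of 24 fatty acid oxidation and PPAR alpha genes, 22 fell and 1 rose, with a median of -1.40. Cyp4a14, a fatty acid hydroxylase and classic PPAR alpha target, was 56.4 to 192 CPM in chm_o1000 and 4.86 to 14.9 CPM in chm_x1000. Cpt1a, the gate of mitochondrial fatty acid import, had a log2 fold change of -0.71 (SE 0.12) that became -0.19 under total-count scaling, where it did not pass the test (adjusted p = 0.214). Pdk4, a kinase that inhibits pyruvate dehydrogenase, was the riser, at 16.2 to 44.3 against 47.8 to 65.9 CPM.

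All 24 nuclear genes of oxidative phosphorylation and all 13 mitochondrially encoded protein genes fell, beside 33.0% of all tested genes, with medians of -1.10 and -1.35. Atp5b, the catalytic beta subunit of ATP synthase, was 3084, 4805, 5506, 3381 and 3312 CPM in chm_o1000 and 1333, 1498, 1240.1, 1287 and 1726 CPM in chm_x1000. The mitochondrial gene mt-Nd3 showed the largest fall of its list, 3.97-fold. Within chm_o1000, columns 2 and 3 were the highest for both genes. Of 16 glycolysis genes 5 were higher and 9 lower, beside 35.5% and 33.0% of all tested genes, with a median of -0.25 that became 0.28 under total-count scaling. Hexokinase 2 (Hk2), the inducible isoform, rose, with 0.297 to 1.78 CPM in chm_o1000 and 8.59 to 12.03 CPM in chm_x1000.

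Of 20 drug metabolism genes 19 were tested. Among these 11 fell and 6 rose, where 33.0% and 35.5% of all tested genes did, with a median of -1.03. The rises take in Cyp3a13, which was low in chm_o1000 and could pass the low-count filter through chm_x1000 alone. The abundant kidney P450 genes Cyp2e1 and Cyp2j5 had log2 fold changes of -2.27 and -1.87. Cyp3a13 was 0 to 0.983 CPM in chm_o1000 and 4.67 to 9.96 CPM in chm_x1000, and the efflux pumps Abcb1b and Abcc3 rose by 1.65 and 2.03. Targets of the aryl hydrocarbon receptor gave 2 rises and 1 fall among the 4 of 7 with enough counts to test: Cyp1a1, its most sensitive target, was 1.03 to 1.91 and 0.734 to 1.55 CPM and did not pass the test (adjusted p = 0.194), and Cyp1b1 rose 2.59-fold.

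Cholesterol synthesis is the pathway that monacolins of red yeast rice inhibit. Of its 24 genes, 6 rose, 9 fell and 9 did not pass the test, with a median of 0.00. The shares are near the 35.5% higher and 33.0% lower over all tested genes. Hmgcs1, which makes HMG-CoA, was 704, 559, 559, 687 and 676 CPM in chm_o1000 and 229, 196, 197, 213 and 273 CPM in chm_x1000, a 2.88-fold fall. Sqle (squalene epoxidase) rose by 0.36 on the log2 scale. Tm7sf2, a sterol reductase, fell by 2.01 on the log2 scale.

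Of 18 inflammatory signal genes 17 had enough counts to test. As in the cornified envelope list, members near 0 in chm_o1000 could pass the filter through chm_x1000 alone, so only single genes are described. Ccl2, the monocyte chemokine MCP-1, was 0.185, 0.123, 0.347, 0.119 and 0.286 CPM in chm_o1000 and 25.4, 13.8, 28.6, 20.3 and 16.2 CPM in chm_x1000 (log2 fold change 6.61, SE 0.32). Ccl7, a related chemokine, had 2 counts in chm_o1000 and 1.602 to 6.55 CPM in chm_x1000, a ratio of 166 (95% counting interval 45.7 to 1372). The neutrophil chemokine Cxcl1 rose by 5.66 on the log2 scale, complement C3 by 3.62 and the interferon-induced chemokine Cxcl10 by 4.26. All 15 interferon response genes rose, beside 35.5% of all tested genes, with a median of 1.32. The call of Ifi44 was lost without any 1 of 7 libraries. Oas1a (an antiviral RNA sensor) was at 1.72 to 3.47 CPM in chm_o1000 against 5.88 to 16.8 CPM in chm_x1000.

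Macrophage genes rose in 10 of 12 cases, beside 35.5% of all tested genes, with a median of 2.17. Itgam (CD11b) was 1.05, 1.35, 2.01, 0.891 and 0.973 CPM in chm_o1000 and 21.5, 21.3, 20.9, 21.005 and 9.57 CPM in chm_x1000, where column 5 held less than the other 4. Cd68 and Adgre1 (F4/80) rose by 3.82 and 2.43, whereas Csf1r, the receptor that defines the lineage, was at 57.4 and 61.9 CPM and did not pass the test, though it was called higher under total-count scaling (0.66, adjusted p = 0.000807). Of 10 lymphocyte genes 4 were too low to test, the B cell genes Cd79a and Ms4a1 among them. Of the other 6, 3 rose, beside 35.5% of all tested genes, among them the common leukocyte antigen Ptprc (4.86 to 8.26 against 14.999 to 30.96 CPM) and Cd4, whose call was lost without any 1 of 6 libraries. Of 7 neutrophil genes 5 were too low to test. The defining marker Ly6g had a mean of 0 CPM in chm_o1000 and 0.0151 CPM in chm_x1000, while Csf3r and Cxcr2 were called higher; the call of Csf3r was lost without any 1 of 4 libraries.

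All 16 fibroblast and matrix genes rose, beside 35.5% of all tested genes, with a median of 2.42. Tnc (tenascin C, a matrix protein of wound beds) was 3.51, 5.71, 4.72, 4.22 and 3.03 CPM in chm_o1000 and 134, 97.6, 104, 148 and 61.4 CPM in chm_x1000, a 25.7-fold rise in which column 5 was the lowest chm_x1000 library. The collagens Col1a1 and Col3a1 rose by 3.76 and 3.96, and smooth muscle actin (Acta2) by 2.24. The fibroblast receptors Pdgfra and Pdgfrb rose by less, 0.79 and 1.40.

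All 22 proliferation genes rose, beside 35.5% of all tested genes, with a median of 3.51. Mki67, the marker of cycling cells, was 3.02, 7.43, 3.89, 2.97 and 1.72 CPM in chm_o1000 and 50.1, 34.3, 52.5, 67.6 and 28.3 CPM in chm_x1000 (log2 fold change 3.63, SE 0.33). Bub1, a mitotic checkpoint kinase, showed the largest rise of the list at 26.4-fold, and the mitotic cyclin Ccnb1 rose by 4.70 while the S-phase genes Pcna and Tyms rose by 1.19 and 0.62. Cdkn1a, the p53-induced inhibitor p21 that halts the cycle, rose at the same time, from 8.06, 6.33, 5.21, 6.06 and 4.58 CPM to 199, 235, 222, 191 and 222 CPM (log2 fold change 5.15, SE 0.15, adjusted p = 6.25e-11). Its 5 chm_x1000 values lay within a narrow band.

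Of 21 p53 targets, 15 rose and 2 fell, where 35.5% and 33.0% of all tested genes did, with a median of 1.37. The rises take in Eda2r, which was low in chm_o1000 and could pass the low-count filter through chm_x1000 alone. Eda2r, a TNF receptor family member, was 0.184 to 0.615 CPM in chm_o1000 and 12.8 to 20.1 CPM in chm_x1000, a 47.5-fold rise, and Mdm2, which degrades p53, rose by 1.41 on the log2 scale. Bax, the pro-apoptotic pore former, was at 44.7 and 44.9 CPM and did not pass the test, though it was called higher under total-count scaling (0.56, adjusted p = 0.000463). Ei24 fell by 0.49, and under total-count scaling its log2 fold change was 0.04.

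The integrated stress response rose in 15 of 17 tested genes of 18, beside 35.5% of all tested genes, with a median of 1.76. Atf3, a stress transcription factor, was 1.17, 1.41, 2.15, 1.13 and 0.801 CPM in chm_o1000 and 44.02, 27.5, 25.97, 25.6 and 30.2 CPM in chm_x1000, and the secreted cytokine Gdf15 was 2.85 to 9.79 and 52.9 to 71.8 CPM. Shmt2, the mitochondrial serine enzyme, was the member that fell (3.41-fold). Of 20 NRF2 targets 9 were higher and 5 lower, with a median of 0.01, beside 35.5% and 33.0% over all tested genes. Gsta1, a glutathione transferase, rose 78.5-fold and Hmox1, the heme oxygenase, 3.82-fold, but Nqo1, the usual index gene of NRF2, had a log2 fold change of -0.49 that became 0.04 under total-count scaling (adjusted p = 0.796).

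Chaperone genes rose in 9 of 15 cases and fell in 4, where 35.5% and 33.0% of all tested genes did. The small heat shock protein Hspb1 rose 12.7-fold and the inducible Hspa1b rose by 2.34 on the log2 scale. Herpud1, of endoplasmic reticulum degradation, and the mitochondrial chaperonin Hspe1 had log2 fold changes of -1.43 and -1.34. Metallothioneins, which bind zinc and cadmium, rose: Mt2 was 20.5 to 35.5 CPM in chm_o1000 and 142 to 229 CPM in chm_x1000, and Mt1 was 72.9 to 145 and 193 to 325 CPM. The zinc exporter Slc30a1 had a log2 fold change of -0.38 that became 0.15 under total-count scaling. Hypoxia targets gave 2 rises and 3 falls among the 9 of 10 tested, with a median of -0.01, beside 35.5% and 33.0% of all tested genes; the mitophagy receptor Bnip3 fell and the peptide hormone Adm rose.

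Of 14 immediate early genes 13 rose, beside 35.5% of all tested genes, with a median of 2.46. That count takes in Fosl1, which was near 0 in chm_o1000 and could pass the low-count filter through chm_x1000 alone. Fosl1, an AP-1 subunit, was 0.492, 0.307, 0.0694, 0 and 0 CPM in chm_o1000 and 56.9, 58.9, 52.2, 47.2 and 64.2 CPM in chm_x1000 (log2 fold change 8.30, SE 0.34), with columns 1 and 2 of chm_o1000 above the other 3. The Fosl1 value ran from 7.93 to 9.13 over the alternative settings, which include leaving out each library. Fosb, Egr1 and Myc rose by 5.41, 3.29 and 3.38. Of 14 circadian clock genes 5 rose and 9 fell, where 35.5% and 33.0% of all tested genes did. The risers were Arntl, Clock, Npas2, Per1 and Cry1, and the fallers included the output factors Dbp, Hlf and Tef. Arntl, the positive clock factor BMAL1, was 5.79, 3.32, 3.19, 2.43 and 4.81 CPM in chm_o1000 and 17.3, 15.6, 15.5, 15.3 and 13.8 CPM in chm_x1000, and Dbp was 93.7, 159.8, 203, 147 and 128 CPM and 17.4, 39.4, 24.3, 20.2 and 35.9 CPM. The time of day of tissue collection is not given in the labels and was not tested.

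Scaling by total counts changed the counts of several lists. Under it 58.4% of all tested genes were called higher and 15.7% lower. The endothelial list then had 9 of 10 genes higher and none lower, and the podocyte list 6 of 9 higher and none lower. Among the tubule segments, 5 thick ascending limb genes were higher and 3 lower, 3 distal convoluted tubule genes were higher and 4 lower, and 2 intercalated cell genes were higher and 4 lower. Cholesterol synthesis had 15 genes higher and 7 lower, NRF2 targets 14 and 3, glycolysis 9 and 4, hypoxia targets 6 and 2, chaperones 11 and 2, p53 targets 19 and 0, and the circadian clock 5 and 5. In the principal cell list Scnn1b (0.18, adjusted p = 0.14, edgeR) and Scnn1g (0.01, adjusted p = 0.907, edgeR) were not called under it. In the fatty acid oxidation list Hadha was called higher (0.35, adjusted p = 0.0107, edgeR) and Ppargc1a was not called (-0.02, adjusted p = 0.868, edgeR). The proximal tubule list still had 30 of 34 genes lower, and the injury list had all 22 higher.

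The chm_o1000 levels lay near those of the PBS controls and the chm_x1000 levels near those of puberulic acid. Among the 10969 genes called between the sets, the control mean on the log2(CPM + 1) scale was nearer to chm_o1000 for 10364 (94.5%), and the puberulic acid mean was nearer to chm_x1000 for 9890 (90.2%). Puberulic acid against control, which shares no sample with the set comparison, called 10622 of 16266 genes (65.3%). Of 10858 set-called genes tested in both, 8905 (82.0%) were called there in the same direction and 24 in the opposite direction, and 1929 were not called. Havcr1 was 1072 to 1318 CPM with puberulic acid, beside 1005 to 1243 CPM in chm_x1000.

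**Figure D5:**
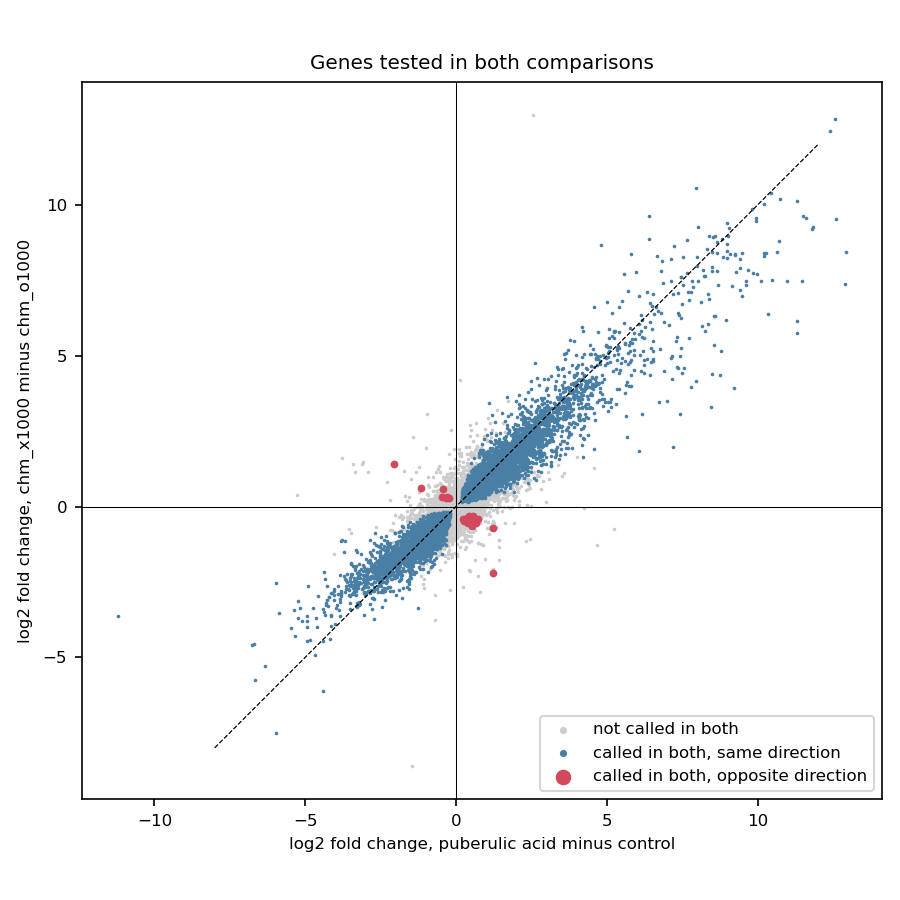
Log2 fold change of chm_x1000 minus chm_o1000 (vertical) against that of puberulic acid minus control (horizontal) for each gene tested in both, with the dashed line marking equal change. The 8905 genes called in both in the same direction lie at the lower left and upper right, and the 24 called in opposite directions lie at the upper left and lower right.

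Sizes were compared next. Among genes called in both comparisons in the same direction, the 4546 that rose had a median log2 fold change of 1.13 between the sets and 1.19 with puberulic acid, and the 4359 that fell had medians of -0.94 and -0.97. The change with puberulic acid was the larger for 61.0% of the fallers and 54.9% of the risers. For proximal tubule genes the medians were -2.01 between the sets and -2.75 with puberulic acid, and for injury genes 3.58 and 3.74. Slc34a1 was 333 to 866 CPM in chm_x1000 and 50.2 to 314 CPM with puberulic acid.

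Puberulic acid libraries stood apart from their 4 partners on different lists. Column 2 was at 3.54 on the podocyte list against 4.775 to 5.155 in the others (mean log2(CPM + 1)). On the endothelial list it was at 4.31 against 4.90 to 5.61. Column 3 was at 4.93 on the adrenal list, with 1 gene tested, against 1.21 to 2.02. On the proximal tubule list it was column 1 that stood apart. Its mean log2(CPM + 1) over the proximal tubule list was 7.03, within the chm_x1000 range of 6.94 to 7.66, while the other 4 lay between 5.88 and 6.10. The control libraries ran from 8.80 to 9.17 and chm_o1000 from 9.02 to 9.28. Slc34a1 was 314, 50.2, 76.05, 50.7 and 83.9 CPM in puberulic acid columns 1 to 5, with column 1 the highest.

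The difference between the changes (chm_x1000 minus chm_o1000, less puberulic acid minus control) was tested directly, and its result depended on that library. With all 20 libraries no gene of 17144 passed the adjusted threshold by edgeR, where 2680 genes had an unadjusted p under 0.05, the smallest adjusted p was 0.0849 and the median SE was 0.24. DESeq2 called 318 of the 16113 genes it gave an adjusted p (1.97%), 120 with a positive and 198 with a negative difference. Without puberulic acid column 1, edgeR called 1209 of 17393 genes (6.95%), 808 positive (4.65%) and 401 negative. Leaving out any other single library gave 0 to 86 calls, the 86 without chm_o1000 column 1. Without both puberulic acid column 1 and chm_x1000 column 5 it called 973. Column 1 was singled out by its level of proximal tubule genes, so calls made without it are no test of those genes, and none is given by name.

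With all libraries, the difference for Slc34a1 was 1.91 (SE 0.55, adjusted p = 0.13, edgeR) and that for Slc22a8 was 2.17 (SE 0.52). Slc12a3, which overlapped between the sets, had a difference of 0.96 (SE 0.31) and a level of 514, 245, 258, 173 and 246 CPM in puberulic acid columns 1 to 5. Havcr1 had a difference of -0.88 (SE 0.41) and Cdkn1a of -1.06 (SE 0.24). None of these passed the test, which does not show that the changes are alike.

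A single control library, column 1, stood apart on the interferon list. Its mean log2(CPM + 1) was 5.84, against 3.10 to 3.35 in the other 4 controls, 3.04 to 3.51 in chm_o1000, 4.10 to 4.98 in chm_x1000 and 4.21 to 6.29 with puberulic acid. The comparison of the sets holds no control library. For puberulic acid against control, 7 of the 15 interferon genes were called higher with this library (median 1.22) and 15 without it (median 2.67). Over all tested genes, 65.3% were called there in either direction with all libraries. With each library left out in turn, 10104 to 11108 genes were called there. In the difference of the changes none was called with all libraries, with a median of -0.08 that became -1.26 without control column 1. Without that column and puberulic acid column 1, 11 were called negative, where 1285 genes were called in either direction. Control column 1 was singled out by this same list, so these counts show what rests on it and test nothing further.

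The 24 genes called in opposite directions in the separate comparisons mostly changed by less than 1 log2 unit between the sets, except Hif3a (1.40) and Igkc (-2.19). Both calls were lost when a single library was left out. Without chm_o1000 column 3, which held 213 of the 292 Igkc counts of its set, Igkc was at -0.53 (adjusted p = 0.128, edgeR). Hif3a was at 0.80 without chm_x1000 column 3 (adjusted p = 0.082, edgeR) and at 1.18 without chm_o1000 column 4 (adjusted p = 0.0588). Tfap2b, a transcription factor of the distal nephron, was 24.7 to 39.3 CPM in chm_o1000 and 34.4 to 52.6 CPM in chm_x1000 (log2 fold change 0.59, SE 0.15), against 34.1 to 44.9 CPM in control and 21.7 to 38.3 CPM with puberulic acid (log2 fold change -0.44, SE 0.15). Slit2, a guidance ligand, had log2 fold changes of 0.33 and -0.46 in the respective comparisons. Of the 24, 7 were higher in chm_x1000 and 17 lower. These genes were picked by their signs, so the signs support nothing further.

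A single chm_x1000 library, column 5, lay nearer to chm_o1000 than its partners. For the 458 called genes at least 4-fold lower, it stood at 78.0% of the way from the chm_o1000 mean to the mean of the other 4 chm_x1000 libraries (median over genes of log2(CPM + 1)), where the same measure was 104.5 to 107.4% for each of the others. It was the chm_x1000 library nearest to chm_o1000 for 73.1% of these genes, and for 48.1% of the 1230 called genes at least 4-fold higher. Its Havcr1 level was the highest of the 10, at 1243 CPM. Without this library and chm_o1000 column 3, 10902 genes were called, 10315 of them among those called with all 10 libraries and in the same direction.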

How the data were processed

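The authors deposited estimated counts per gene for 20 libraries of poly(A) RNA. Per the submitters' processing notes the tools were fastp 0.22.0, FastQC 0.12.1, MultiQC 1.28, Salmon 1.10.3 and DESeq2, with the GRCm39 genome. Columns were assigned by name to control, puberulic acid or a supplement prefix; the assignment of prefixes to lots is not given in the sources used here. The members and gene lists were chosen with earlier results of these data known.

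Estimated counts were rounded and fitted with edgeR 4.0.16 (quasi-likelihood, filterByExpr, TMM factors, R 4.3.3) on the 10 supplement columns, with Benjamini-Hochberg adjustment over 15995 genes. DESeq2 1.42.0 was an alternative. Total counts of 18865725 to 24266310 limit precision for low genes; intervals cover counting error only. Named genes were the 12 largest changes in each direction (called, ranges apart, a mean of at least 1 CPM in the higher set, with a gene symbol), the leading genes of each list and a fixed set. Same-numbered columns did not deviate together (correlations -0.0247 to 0.0963), so no pairing was used. Symbols and promoters came from RefSeq-based tables of GRCm38.p6, a build other than that of the files. Some genes of the lists are counted but not reported by name here. The fitting procedure was tested on simulated data with 200 changed genes. The case where most genes change, as between these sets, was not simulated.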

Additional observations from a re-analysis of the deposited data

Results flagged for a closer look

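Among 116 groups of 5 libraries with more than 3 counts, 12 held a library that lay far from its 4 partners, as the ratio of its gap to the whole range passed 0.71; chance gives about 1 group in 20, or 5.8. Of the 12, 7 were chm_x1000 column 5, always with a higher level of a gene that fell between the sets. The ratios there were 0.833 for Slc22a8 (62.1 CPM against 12.1 to 20.5), 0.754 for Cyp2d12 (2.54 CPM), 0.736 for Mroh7 (1.11 CPM), 0.938 for Miox (271 CPM against 85.2 to 96.6), 0.824 for Pde6a (2.31 CPM), 0.789 for Slc34a1 (866 CPM against 333 to 446) and 0.734 for Lrp2 (389 CPM against 198 to 249). These genes share 1 library, so the flags are not independent of each other.

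In chm_o1000, column 2 was high for Slc22a8 (0.715) and column 4 for Clu (0.718, 314 CPM). In chm_x1000, column 2 was high for Gdf15 (0.823, 71.8 CPM) and Mt1 (0.722, 325 CPM), and column 1 for Atf3 (0.751). The ratio was also 1.0 for Sprr2h and 1.0 for Cnga3 in chm_o1000, with 1 and 2 counts in the whole set, all in column 1; with so few counts the ratio is fixed and says nothing of that library, so these are left out of the 12.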

How the results depend on the processing

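The count of 10969 genes called between the sets ranged from 10425 to 11021 when each library was left out in turn, and was 10745 with the replicate block (the pairing by column number, 10325 for puberulic acid against control), 11135 by DESeq2, 12164 with no filter and 10902 without chm_o1000 column 3 and chm_x1000 column 5. Requiring a 2-fold change gave 5015 calls (2811 higher, 2204 lower) and 5264 for puberulic acid. Total-count scaling gave 9335 higher and 2507 lower, and reversed the medians of the distal convoluted tubule (0.12) and glycolysis (0.28) lists and the values of Kdr (0.18), Ei24 (0.039), Nqo1 (0.036) and Slc30a1 (0.15), since it shifts all genes by a common amount. The difference of differences gave 0 calls by edgeR with all libraries and under RLE, total-count and 1 CPM settings, 318 by DESeq2, and 0 to 1209 when each of the 20 libraries was left out, with 1209 without puberulic acid column 1, 86 without chm_o1000 column 1, 3 without control column 5 and 1 without chm_x1000 column 2. It gave 973 without both puberulic acid column 1 and chm_x1000 column 5, and 1285 without both puberulic acid column 1 and control column 1; the cause was not tested. Alternatives for this difference were chosen after seeing the data. The gap in total counts was 2465207 to 3663105 over left-out libraries, and its exact permutation p rose to 0.0635 for 6 of them. Of 2130 gene and setting pairs for the 97 named genes, 2103 kept call and direction.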

Other observations

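Ribosomal protein genes were chosen after their values were seen. Among 83 of them, 11 were higher and 17 lower in chm_x1000 than in chm_o1000, with a median log2 fold change of -0.08, where 35.5% and 33.0% of all tested genes were called. With puberulic acid 69 were higher and 1 lower than in control, with a median of 0.56, where 65.3% of all tested genes were called in either direction. The direct test of the difference called none of them by edgeR (smallest adjusted p 0.0905) and 48 by DESeq2, which called 318 of 16113 genes (1.97%) in all. Their summed level was 20833 to 31521 CPM in chm_o1000, 24798 to 27502 in chm_x1000, 21217 to 25753 in control and 28966 to 40126 with puberulic acid. Of the 24 genes called in opposite directions, 9 were ribosomal protein genes. Reads of these genes can be split with near-identical pseudogenes. The 2 chm_o1000 libraries with the highest sums, columns 2 and 3, also had the highest mitochondrial mt-Nd3 levels.

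Lep, the leptin gene, was at 0 or 1 count in each chm_o1000 library and 0.441 to 0.983 CPM in chm_x1000, while the adipocyte gene Adipoq was 0 to 0.0445 CPM in chm_x1000. The haemoglobin gene Hba-a1 was lower in all 10 supplement libraries than in any control: it was 229 to 750.4 CPM in control, 28.2 to 98.7 CPM in chm_o1000, 12.1 to 47.2 CPM in chm_x1000 and 4.101 to 53.4 CPM with puberulic acid. The share of blood left in each kidney was not tested.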
